A study of Mus musculus with 12 samples.

Results

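The immediate early and activity-induced genes are a set of 44 genes that were picked by name for their known rapid induction, among 24078 transcripts for which a level was deposited. All 44 were found by gene symbol. The set was chosen with earlier results of these data known, and it holds Egr1, Zfp36 and Npas4, which the study listed as changed in these same animals. Counts of the set below include these genes and are not independent of those results. RNA came from the pancreatic islets of 12 male mice, 4 wild-type (WT), 4 heterozygous (Wfs1HZ) and 4 homozygous (Wfs1KO) for a Wfs1 mutation, in which a LacZ cassette replaces most of exon 8. The mice were F2 hybrids of 129S6/SvEvTac and C57BL/6 and 5 to 6 months old, and the mutation, labelled Wfs1tm1Koks, is carried in every cell and leaves a truncated WFS1 protein fused to the LacZ product. Islets of all 3 genotypes were freed with collagenase, picked by hand and kept overnight in a medium with 4.5 g/L glucose before RNA was isolated, and 1 library was made for each animal. Levels are given in RPKM, the reads on a transcript divided by its length and by the mapped reads of the library, and values of 4 animals stand in the order of replicates 1 to 4.

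Immediate early genes are switched on within minutes of a stimulus, without new protein synthesis, by factors that already sit in the nucleus, such as CREB, serum response factor and its partners of the ternary complex family. Membrane depolarisation, calcium entry, cyclic AMP, growth factors, cell stress and the dissociation of tissue are known stimuli. In beta cells glucose closes potassium channels and opens calcium channels, and genes such as Fos, Egr1, Nr4a1 and Npas4 follow. Many of the proteins are transcription factors, and others feed back on the signal: the ZFP36 proteins speed the decay of short-lived mRNAs and the DUSP phosphatases inactivate MAP kinases.

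The proximal promoters were searched for 4 motifs through which such stimuli are known to act, and 15 of the 33 with a sequence held none of them. The RefSeq promoter table for the build GRCm38.p6 held an entry for 33 of the 44 genes. The others were Fosl1, Klf10, Myc, Arc, Sik1, Egr1, Egr3, Kdm6b, Ier2, Dusp4 and Ctgf. Within 250 bases before the start, on either strand, the EGR motif GCGNGGGCG was found for 13 of 33 genes (39.4%), among them Zfp36, Gadd45b, Nr4a1 and Fosb, against 5.33% of the 27025 genes in the table and 7.8% of the 14821 of these genes that were tested here. The CArG box, the motif of serum response factor, was found for Dusp5, Egr2 and Zfp36 (3 of 33, 9.09%, against 1.62% of all genes). The full cyclic AMP response element TGACGTCA was present for Btg2, Dusp1 and Maff (3 of 33, 9.09%, against 1.77%). The AP-1 motif TGANTCA was found for Csrnp1 and Zfp36l1, 2 of 33 or 6.06%, against 7.82% of all genes. The EGR motif shares the letters GGGCG with the GC box of SP1 factors, and the motifs are matches of letters and not measured binding. The last 150 bases before the RefSeq start are printed for 6 genes that show these motifs and whose levels are described below, 5′ to 3′ on the strand of the gene, with the motif in capitals. Zfp36 (chr7:28379229-28379378 on the minus strand) holds an EGR motif and a CArG box, Egr2 (chr10:67537416-67537565 on the plus strand) a CArG box, and Gadd45b (chr10:80929941-80930090 on the plus strand) and Nr4a1 (chr15:101266696-101266845 on the plus strand) the EGR motif on the opposite strand. Dusp1 (chr17:26508473-26508622 on the minus strand) holds the cyclic AMP response element, and Dusp5 (chr19:53528995-53529144 on the plus strand) a pair of CArG boxes side by side.
Zfp36: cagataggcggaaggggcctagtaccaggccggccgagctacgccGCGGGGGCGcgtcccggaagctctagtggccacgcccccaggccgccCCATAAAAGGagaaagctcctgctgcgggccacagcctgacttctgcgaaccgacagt
Egr2: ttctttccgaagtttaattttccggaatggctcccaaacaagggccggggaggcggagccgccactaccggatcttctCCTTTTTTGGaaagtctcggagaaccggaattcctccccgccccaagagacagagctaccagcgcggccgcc
Gadd45b: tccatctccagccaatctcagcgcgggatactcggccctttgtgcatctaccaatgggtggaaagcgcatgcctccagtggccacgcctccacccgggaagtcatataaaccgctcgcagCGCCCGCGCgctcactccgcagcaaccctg
Nr4a1: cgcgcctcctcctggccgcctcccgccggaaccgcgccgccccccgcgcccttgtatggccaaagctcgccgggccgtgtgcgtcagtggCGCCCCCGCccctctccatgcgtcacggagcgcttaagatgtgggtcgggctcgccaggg
Dusp1: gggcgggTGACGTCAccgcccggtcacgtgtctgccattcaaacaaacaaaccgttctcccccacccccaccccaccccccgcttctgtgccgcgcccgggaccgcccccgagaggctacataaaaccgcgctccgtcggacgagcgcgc
Dusp5: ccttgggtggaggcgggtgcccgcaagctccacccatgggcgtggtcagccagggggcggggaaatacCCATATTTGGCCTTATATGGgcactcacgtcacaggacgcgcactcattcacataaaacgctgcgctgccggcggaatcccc

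The libraries differed in depth and in the cells they held. The reads behind the RPKM were estimated at 2191000 (Wfs1HZ replicate 2) to 9563000 (Wfs1KO replicate 1), so that 3 reads on a transcript of 2 kb were worth 0.685 to 0.157 RPKM. This estimate is far below the numbers of reads that the study gives for its samples, and the step at which reads were lost or left out of the RPKM is not given in the sources used here, so every number of reads and every floor holds for the estimate alone. Wfs1 itself was at 24.9 to 33.9 RPKM in WT, 4.69 to 16.4 RPKM in Wfs1HZ and 2.45 to 6.61 RPKM in Wfs1KO islets, so the WT animals did not overlap with the others. Every library held the defining endocrine transcripts Ins1, Ins2 and Gcg, whereas Mafa was listed at 0 in 10 of 12 libraries. The summed level of 10 acinar markers was 53113 to 119734 RPKM in WT islets, 8967 to 304775 RPKM in Wfs1HZ islets and 8369 to 275801 RPKM in Wfs1KO islets, with the lowest sums in Wfs1HZ replicate 2 and Wfs1KO replicate 4 and the highest in Wfs1HZ replicate 4 and Wfs1KO replicate 3. The sum of 8 stromal markers was 24.5 to 58.9 RPKM in WT, 15.4 to 426 RPKM in Wfs1HZ and 66.9 to 165 RPKM in Wfs1KO islets, so that the Wfs1KO animals stood above all WT animals, and the mean of 7 of the 8 genes was higher in Wfs1KO and likewise of 7 in Wfs1HZ than in WT. The sum of 6 endothelial markers was 26.9 to 84.0 RPKM in WT, 29.5 to 139 RPKM in Wfs1HZ and 76.5 to 95.8 RPKM in Wfs1KO islets, and the means of all 6 were higher in Wfs1KO and in Wfs1HZ than in WT. The 6 ductal markers summed to 645 to 1373 RPKM in WT, 425 to 1370 RPKM in Wfs1HZ and 181 to 1907 RPKM in Wfs1KO islets, and 8 immune markers to 62.3 to 233, 52.8 to 115 and 29.7 to 177 RPKM, both lowest in Wfs1KO replicate 4. Of these, 3 ductal and 6 immune genes had a higher mean in Wfs1KO than in WT, and as many in Wfs1HZ. The 10 endocrine markers summed to 165876 to 260296 RPKM in WT, 149355 to 227291 RPKM in Wfs1HZ and 96631 to 262686 RPKM in Wfs1KO islets, and 4 of them had a higher mean in Wfs1KO and 4 in Wfs1HZ, against 2 and 1 of the 10 acinar genes. Single abundant transcripts weigh heavily in these sums. Over the 12 libraries Gcg alone was at 50073 to 217165 RPKM and Ins1 at 4981 to 91587 RPKM, so the endocrine sum does not follow beta cells alone. Ctrb1 reached 258070 RPKM among the acinar, Spp1 1827 RPKM among the ductal and Dcn 224 RPKM among the stromal markers. The part of these cells in the levels below was not tested, and in RNA from whole islets fewer cells of a type and less RNA per cell cannot be told apart.

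**Figure D1:**
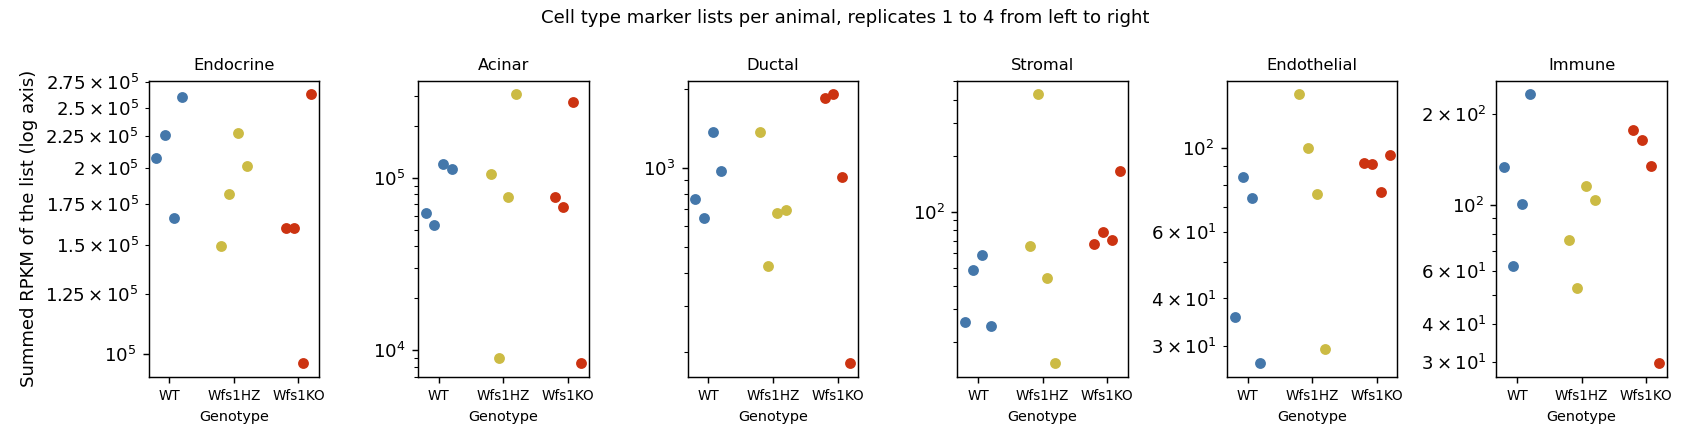
Summed RPKM of each cell type marker list (log axis) by genotype, 1 point per animal with replicates 1 to 4 from left to right. Wfs1HZ replicate 2 and Wfs1KO replicate 4 have the lowest acinar sums (8967 and 8369 RPKM), and all stromal sums of Wfs1KO (66.9 to 165 RPKM) lie above those of WT (24.5 to 58.9 RPKM).

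Most of the 44 genes had higher levels in Wfs1KO and in Wfs1HZ islets than in WT islets, but none passed the test after adjustment. All 44 reached the minimum mean of 0.1 RPKM over the 12 animals that was set for testing, on log2(RPKM + 0.1) with limma over 21701 transcripts, and 3 of them (Egr3, Egr4 and Dusp2) had a mean under 1 RPKM. Between Wfs1KO and WT the mean log2 level was higher in Wfs1KO for 38 of 44 genes, against 57.8% of all transcripts tested, and with quantile normalization Btg2 and Dusp1 turned lower (log2 fold changes of -0.054 and -0.0280). The median log2 fold change was 0.53 over the 44 genes and 0.07 over all transcripts. An unadjusted p under 0.05 was reached by 14 genes that were higher and 2 that were lower in Wfs1KO, where the shares over all transcripts were 3.91% and 1.74% (5.64% in both directions). After Benjamini-Hochberg adjustment over all transcripts, 0 of the 44 genes had an FDR under 0.05, against 0.0138% of all transcripts, and 0 had an FDR under 0.2, against 0.0461%. The lowest adjusted p of limma among them was 0.414, for Gadd45b. The 4 Wfs1KO animals lay above the 4 WT animals without overlap for 6 genes (Gadd45b, Kdm6b, Egr1, Gadd45g, Myc and Ier5), against 1.75% of all transcripts, and below them for Npas4, against 0.991%. The p-values of limma weigh each difference of means against the spread between these animals. Without Wfs1KO replicate 4, 16 genes lay above WT without overlap (4.11% of all transcripts), and Zfp36, Egr2 and Kdm6b had an FDR under 0.2, as did 59 of the 21701 transcripts, against 10 with all animals.

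**Figure D2:**
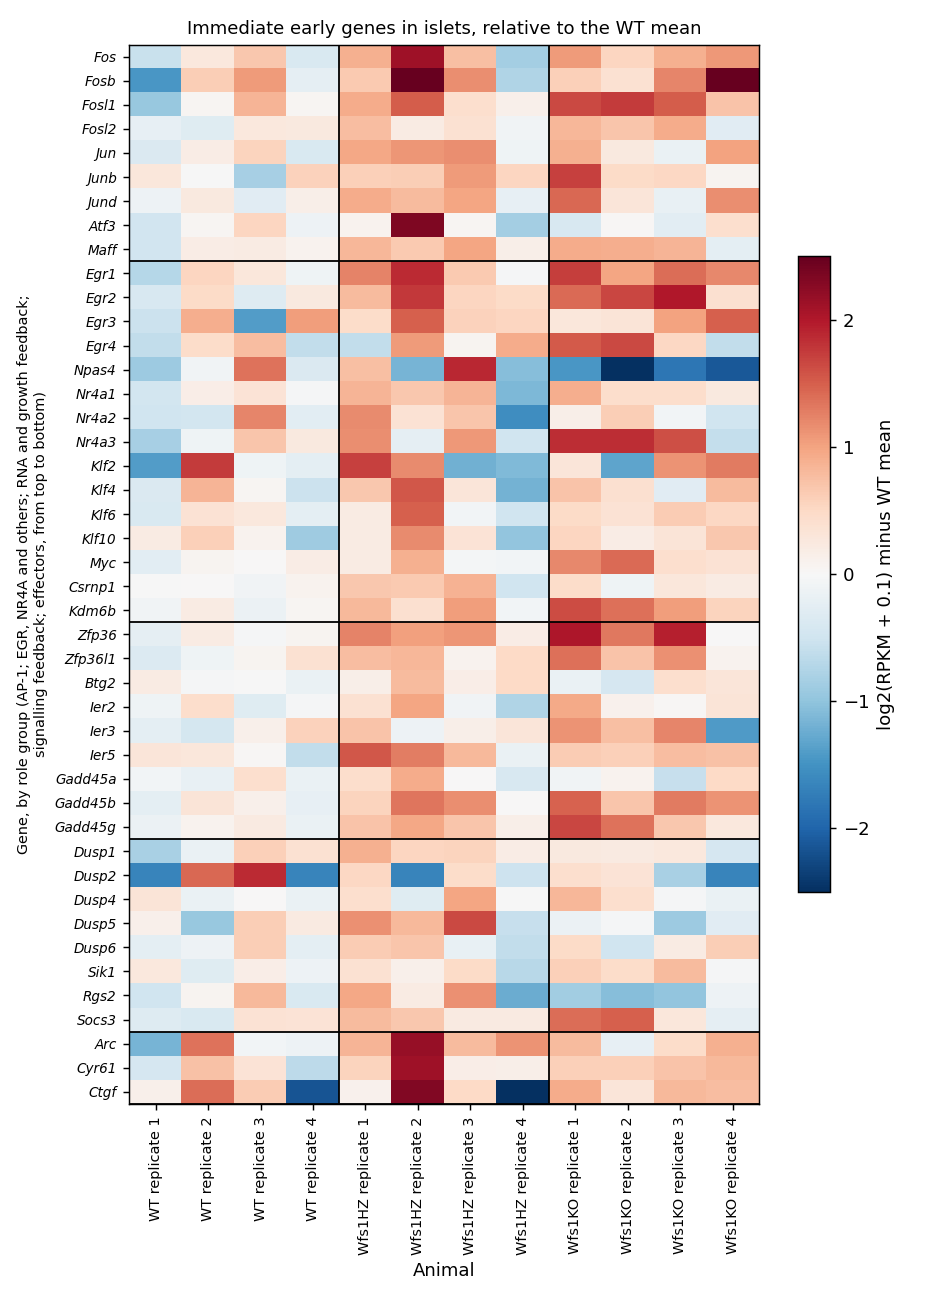
Level of each of the 44 genes (vertical axis, in 5 role groups separated by lines) in each of the 12 animals (horizontal axis) as log2(RPKM + 0.1) minus the mean of the 4 WT animals, with red for higher and blue for lower values. Npas4 is blue in all 4 Wfs1KO animals. Wfs1HZ replicate 2 holds the highest value of 15 genes (46.9% of all transcripts), and Wfs1HZ replicate 4 is the lowest of its genotype for 33 genes (54.7% of all transcripts).

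Between Wfs1HZ and WT islets, which were compared with the same 4 WT animals, the mean log2 level was higher in Wfs1HZ for 42 of 44 genes, against 53.5% of all transcripts, and with quantile normalization Klf2 and Npas4 turned lower (log2 fold changes of -0.25 and -0.27) and Dusp2 turned higher (0.0076). The exceptions were Dusp2, with 0, 0.75, 1.05 and 0 RPKM in WT and 0.35, 0, 0.33 and 0.12 RPKM in Wfs1HZ islets, and Ctgf. The median log2 fold change was 0.42, and 0.04 over all transcripts. In limma 10 genes had an unadjusted p under 0.05, all higher in Wfs1HZ (Zfp36, Gadd45g, Maff, Gadd45b, Jun, Ier5, Egr2, Junb, Zfp36l1 and Egr1), against 1.09% of all transcripts in that direction, 1.27% in the other and 2.35% in both. The count was 2 when limma was run without a variance trend, against 1.38% of all transcripts in that direction. Every adjusted p was 1, so 0 genes had an FDR under 0.05 or 0.2, as was the case for all transcripts (0% at either FDR). Only Egr2 had no overlap between the animals, with Wfs1HZ higher, against 0.576% of all transcripts, and 0 genes lay lower without overlap, against 1.08%. The number with an unadjusted p under 0.05 was 3 without Wfs1HZ replicate 1 or without Wfs1HZ replicate 2 (1.26% and 0.949% of all transcripts, higher in Wfs1HZ), 4 without WT replicate 1 or without Wfs1HZ replicate 3 (0.687% and 1.36%), and 5 without WT replicate 4 (0.622%), all of them higher in Wfs1HZ. Without Wfs1HZ replicate 4, the library with the most acinar RNA, it was 15, against 4.06% of all transcripts, and the same 15 genes had no overlap, against 3.98%, while the median of all transcripts moved to 0.25.

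Between Wfs1KO and Wfs1HZ islets Npas4 stood apart and the other genes overlapped. The mean was higher in Wfs1KO for 27 of 44, against 53.5% of all transcripts (24 of 44 with median-of-ratios scaling and with quantile normalization), and the median log2 fold change was 0.17, against 0.04. A single gene, Npas4, had an unadjusted p under 0.05 in limma, against 2.45% of all transcripts, and it was lower in Wfs1KO, as were 0.756%, while 0 genes were higher, against 1.7%. Npas4 was also the only gene without overlap between the animals (0.502% of all transcripts lay lower and 0.926% higher in that way). No gene had an FDR under 0.05 or under 0.2, and neither had any transcript (0% at either FDR). The median was -0.19 without Wfs1HZ replicate 4, with a median of all transcripts of -0.20, and 0.32 without Wfs1HZ replicate 2, with 0.28 over all transcripts. The count at an unadjusted p under 0.05 was 8 without Wfs1KO replicate 4 (6 of them higher in Wfs1KO), against 3.6% of all transcripts, 6 without Wfs1HZ replicate 4 (all lower), against 3.34%, and 4 without Wfs1HZ replicate 2, against 6.03%. Without Wfs1HZ replicate 3 the count was again 1, against 2.53% of all transcripts, and the gene was Kdm6b, higher in Wfs1KO, in place of Npas4. With quantile normalization Npas4 did not have such a p either. The 3 genes that did were Rgs2, Dusp1 and Dusp5, all lower in Wfs1KO, against 4.08% of all transcripts (1.99% lower). The mean levels lay in the order WT, Wfs1HZ, Wfs1KO from low to high for 26 of 44 genes, against 19.3% of all transcripts. WT was lowest for 37 genes, against 39.8%, Wfs1HZ was highest for 16, against 33.9%, and Wfs1KO was lowest for 6 (Npas4, Dusp2, Dusp5, Atf3, Rgs2 and Gadd45a), against 26.1%. Of genotypes next to each other in this order, Wfs1HZ and Wfs1KO overlapped in their animals for every gene but Npas4, and WT and Wfs1HZ for every gene but Egr2.

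**Figure D3:**
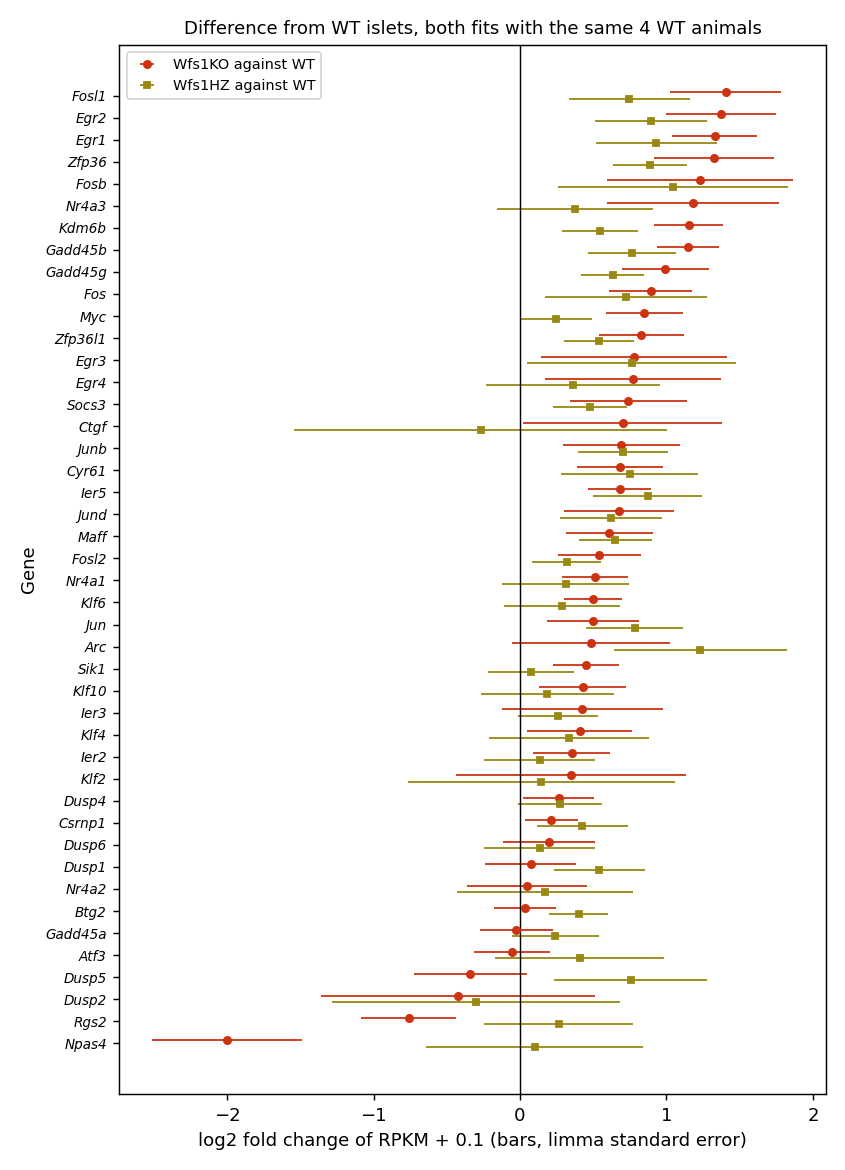
Log2 fold change of RPKM + 0.1 (horizontal axis, bars are limma standard errors, SE) of each of the 44 genes for Wfs1KO against WT (red circles) and Wfs1HZ against WT (yellow squares), which share the 4 WT animals. Genes are sorted by the Wfs1KO value, from -2.0 for Npas4 at the bottom to 1.40 for Fosl1 at the top.

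The AP-1 genes encode basic leucine zipper proteins that pair with each other on DNA. Of the 9 measured, 8 had a higher mean in Wfs1KO than in WT islets, 2 with an unadjusted p under 0.05 (Fosl1 and Fos), and the median log2 fold change was 0.68. Over all transcripts 57.8% were higher in Wfs1KO, 3.91% were higher and 1.74% lower with such a p, and the median was 0.07. All 9 were higher in Wfs1HZ than in WT, 3 with an unadjusted p under 0.05 (Jun, Junb and Maff), with a median of 0.70, where over all transcripts 53.5% were higher, 1.09% higher with such a p, and the median was 0.04. Fos, the partner of Jun and the classical immediate early gene (chromosome 12, 85473890 to 85477273), was at 5.73, 10.2, 13.5 and 6.52 RPKM in WT, 15.8, 36.9, 14.4 and 4.63 RPKM in Wfs1HZ and 17.7, 12.3, 15.8 and 18 RPKM in Wfs1KO islets. Wfs1KO lay above 3 of the 4 WT animals, and WT replicate 3 overlapped with its lowest animal. The difference was 0.89 ± 0.29 (SE) on the log2 scale, with an adjusted p of 0.835 from limma and an exact two-sided permutation p of 0.0571. Fosl1, which encodes FRA1, a FOS relative without a strong activation domain, was at 4.12, 8.33, 14.6 and 8.37 RPKM in WT, 15.4, 23.3, 10.8 and 8.81 RPKM in Wfs1HZ and 25.4, 27.2, 23.3 and 13.3 RPKM in Wfs1KO islets. It had the largest log2 fold change of all 44 genes between Wfs1KO and WT, 1.40 ± 0.38 (SE, limma, adjusted p 0.835, exact permutation p = 0.0571), and again only WT replicate 3 reached the Wfs1KO range. Fosb, the closest relative of Fos, varied widely and was at 1.92, 8.34, 11.5 and 4.64 RPKM in WT, 8.62, 47.7, 12.4 and 3.19 RPKM in Wfs1HZ and 8.24, 7.13, 12.8 and 36.3 RPKM in Wfs1KO islets. Its highest values came from Wfs1HZ replicate 2 and Wfs1KO replicate 4, the libraries with the least acinar RNA. The Wfs1KO and WT animals overlapped, with a log2 difference of 1.23 ± 0.64 (SE, exact permutation p = 0.2).

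Jun, which pairs with FOS proteins and binds DNA also on its own, was at 24.7, 36.1, 46.8 and 24.4 RPKM in WT, 62.1, 68.8, 71 and 29.6 RPKM in Wfs1HZ and 59.1, 37.9, 28.5 and 63.6 RPKM in Wfs1KO islets. In Wfs1HZ 3 animals lay above every WT animal and replicate 4 lay among them, with a log2 difference of 0.78 ± 0.33 (SE) and an exact permutation p of 0.0857. Junb, a weaker activator than Jun, was at 11.7, 9.51, 5.36 and 14.3 RPKM in WT, 14.6, 14.7, 20.3 and 14 RPKM in Wfs1HZ and 31.5, 13.4, 13.8 and 10.1 RPKM in Wfs1KO islets. One Wfs1KO animal, replicate 1, stood above all others, and Wfs1HZ was higher than WT by 0.70 ± 0.31 (SE) on the log2 scale (exact permutation p = 0.0571). Maff, a small MAF protein that lacks an activation domain, was at 56.2, 88.8, 90.01 and 82.6 RPKM in WT, 138, 123, 154 and 86.1 RPKM in Wfs1HZ and 148, 147, 140.5 and 66 RPKM in Wfs1KO islets. Replicate 4 was the lowest of both mutant genotypes, and the other 3 Wfs1KO and 3 Wfs1HZ animals lay above every WT animal. Atf3, a stress-induced repressor, was at 25, 36.1, 50.7 and 31.8 RPKM in WT, 37, 175, 36 and 19.2 RPKM in Wfs1HZ and 26.2, 35.4, 28.9 and 46.7 RPKM in Wfs1KO islets. Wfs1HZ replicate 2 held the highest value, the Wfs1KO animals lay within the WT range, and Wfs1KO differed from WT by -0.05 ± 0.26 (SE) on the log2 scale. Fosl2 had means of 27.2 ± 5.53, 34.2 ± 8.59 and 41 ± 13 RPKM in WT, Wfs1HZ and Wfs1KO islets (SD, n = 4), and Jund, which is less inducible than the other JUN genes, had means of 3.07 ± 0.526, 4.97 ± 1.6 and 5.44 ± 2.69 RPKM.

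The zinc finger factors of the EGR family and the NR4A nuclear receptors stood in a group of 15 inducible regulators, of which 14 had a higher mean in Wfs1KO than in WT islets, 6 of them with an unadjusted p under 0.05, and 1 (Npas4) was lower with an unadjusted p under 0.05. The median log2 fold change of the group was 0.51, and the shares over all transcripts were 57.8%, 3.91% and 1.74%. In Wfs1HZ all 15 had a higher mean than in WT, 2 with an unadjusted p under 0.05 (Egr2 and Egr1), against 53.5% and 1.09% of all transcripts, with a median of 0.33. Egr1, the most abundant of the EGR genes and a sensor of MAP kinase activity (chromosome 18, 34859823 to 34864984), was at 40.7, 97.8, 81.6 and 62.3 RPKM in WT, 159, 243, 106 and 65.8 RPKM in Wfs1HZ and 222, 133, 178 and 153 RPKM in Wfs1KO islets. The 4 Wfs1KO animals stood above all WT animals, and the Wfs1HZ animals spanned both ranges. The mean RPKM was 70.6 ± 24.7 in WT and 172 ± 38.3 in Wfs1KO islets (SD, n = 4), and the level was 2.51-fold on the RPKM + 0.1 scale (log2 fold change 1.33 ± 0.29 (SE), adjusted p 0.574 in limma). The exact permutation p was 0.0286, the smallest that 4 against 4 animals can give. Egr2, which carries the CArG box printed above, was at 2.06, 3.85, 2.18 and 3.29 RPKM in WT, 4.86, 9.59, 4.04 and 3.86 RPKM in Wfs1HZ and 7.53, 9.02, 11.3 and 3.66 RPKM in Wfs1KO islets. The 4 Wfs1HZ animals lay above the 4 WT animals, though the lowest of them, at 3.86 RPKM, was beside the highest WT value of 3.85 RPKM, and Wfs1KO replicate 4 lay among the WT values. The log2 fold change was 0.89 ± 0.38 (SE) in Wfs1HZ (exact permutation p = 0.0286) and 1.38 ± 0.38 (SE) in Wfs1KO (exact permutation p = 0.0571), both against WT. Egr3 was at 0.08, 0.39, 0 and 0.44 RPKM in WT, 0.26, 0.64, 0.29 and 0.28 RPKM in Wfs1HZ and 0.22, 0.23, 0.43 and 0.64 RPKM in Wfs1KO islets. With its 4406 nt of exons these values stand for at most 15.3 reads by the estimated depth, and the genotypes overlapped. Egr4 was at 0 to 0.16 RPKM in WT, 0 to 0.22 RPKM in Wfs1HZ and 0 to 0.38 RPKM in Wfs1KO islets, at most 7 reads, and Wfs1KO differed from WT by 0.77 ± 0.60 (SE) on the log2 scale. Of the alternatives run, its unadjusted p was under 0.05, with Wfs1KO higher, without Wfs1KO replicate 4 (against WT) and with sample weights (against WT and against Wfs1HZ).

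Npas4 had the lowest fold change of the set in Wfs1KO islets. It encodes a basic helix-loop-helix factor that is induced by calcium entry and by little else (chromosome 19, 4984355 to 4990316), and it was at 1.83, 3.32, 9.25 and 2.75 RPKM in WT, 6.06, 1.52, 13.4 and 1.63 RPKM in Wfs1HZ and 1.23, 0.49, 0.94 and 0.74 RPKM in Wfs1KO islets. All 4 Wfs1KO animals lay below all 8 others, while WT and Wfs1HZ overlapped over their whole ranges and replicate 3 was the highest in both. The Wfs1KO values stand for about 10.1 to 48.6 reads by the estimated depth. The log2 fold change was -2.0 ± 0.51 (SE) against WT and -2.10 ± 0.71 (SE) against Wfs1HZ, that is 0.25 and 0.233 of the level on the RPKM + 0.1 scale. The exact permutation p was 0.0286 in both comparisons, the smallest possible, and the adjusted p of limma was 0.835 and 1. Between Wfs1HZ and WT the log2 fold change was 0.10 ± 0.74 (SE). Over the 12 animals the gene most like Npas4 among the others was Rgs2, with a Pearson r of 0.83 (Spearman rho 0.73) on log2 values, and r was 0.77 after the mean of each genotype had been subtracted. Egr1, Zfp36 and Npas4 were singled out by the study from these same animals, so their values here are not independent evidence of a direction. In the study's edgeR test on counts, Egr1 and Zfp36 had an FDR under 0.05 between Wfs1KO and WT. Npas4 had one between Wfs1KO and Wfs1HZ. That test could not be repeated on RPKM, so the adjusted p of limma here and that FDR come from unlike tests.

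Of the NR4A receptors, which act without a known ligand, Nr4a1 was at 8.23, 12.7, 14.5 and 11.1 RPKM in WT, 20.5, 18.3, 20.6 and 5.19 RPKM in Wfs1HZ and 21.6, 15.5, 15.5 and 13.5 RPKM in Wfs1KO islets. In Wfs1KO 3 animals lay above every WT animal and replicate 4 lay below WT replicate 3, and the log2 fold change was 0.51 ± 0.22 (SE, exact permutation p = 0.0571). Wfs1HZ replicate 4 had the lowest value of all. Nr4a2 had means of 9.45 ± 6.54, 11.4 ± 6.73 and 8.85 ± 2.9 RPKM in WT, Wfs1HZ and Wfs1KO islets (SD, n = 4). Nr4a3 had means of 2.14 ± 0.92, 2.98 ± 1.69 and 5.61 ± 2.94 RPKM, and in Wfs1KO replicates 1 to 3 lay between 6.28 and 7.46 RPKM and replicate 4 at 1.28 RPKM.

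Kdm6b encodes JMJD3, a demethylase of histone H3 lysine 27 (chromosome 11, 69398508 to 69413675), and was at 12.3, 15.1, 11.8 and 13.5 RPKM in WT, 23.2, 17.2, 27.2 and 12.5 RPKM in Wfs1HZ and 41.1, 34.1, 27.3 and 19.2 RPKM in Wfs1KO islets. All Wfs1KO animals lay above all WT animals and Wfs1HZ spanned the gap. The mean RPKM was 13.2 ± 1.44 in WT and 30.4 ± 9.36 in Wfs1KO (SD, n = 4), with a log2 fold change of 1.15 ± 0.24 (SE), an adjusted p of 0.483 in limma and an exact permutation p of 0.0286. Myc, the growth regulator (chromosome 15, 61985391 to 61990374), was at 18.4, 23.1, 22.1 and 25.1 RPKM in WT, 25.4, 41.1, 21.2 and 21 RPKM in Wfs1HZ and 50.7, 59, 29.7 and 28.1 RPKM in Wfs1KO islets. Here too the Wfs1KO animals lay above WT without overlap, with replicates 1 and 2 far above and replicates 3 and 4 close to the upper WT values, and of the heterozygotes only replicate 2 lay inside the Wfs1KO range. The log2 fold change was 0.85 ± 0.26 (SE, limma, adjusted p 0.835, exact permutation p = 0.0286). Klf6, the most abundant of the 4 Krüppel-like factors, was at 29.6, 50.2, 46.4 and 32.9 RPKM in WT, 44.9, 109.7, 37.2 and 27.5 RPKM in Wfs1HZ and 54.2, 49.9, 60.6 and 55.3 RPKM in Wfs1KO islets. The Wfs1KO animals lay close together and only WT replicate 2 reached them, with a log2 fold change of 0.50 ± 0.20 (SE, exact permutation p = 0.0571). For the other Krüppel-like factors the Wfs1KO and WT animals overlapped. Their log2 fold changes between Wfs1KO and WT were 0.41 ± 0.36 (SE) for Klf4, 0.43 ± 0.30 (SE) for Klf10 and 0.35 ± 0.78 (SE) for Klf2. Csrnp1, a nuclear protein, was at 6.48 to 7.35 RPKM in WT, 4.86 to 12.7 RPKM in Wfs1HZ and 6.42 to 9.52 RPKM in Wfs1KO.

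**Figure D4:**
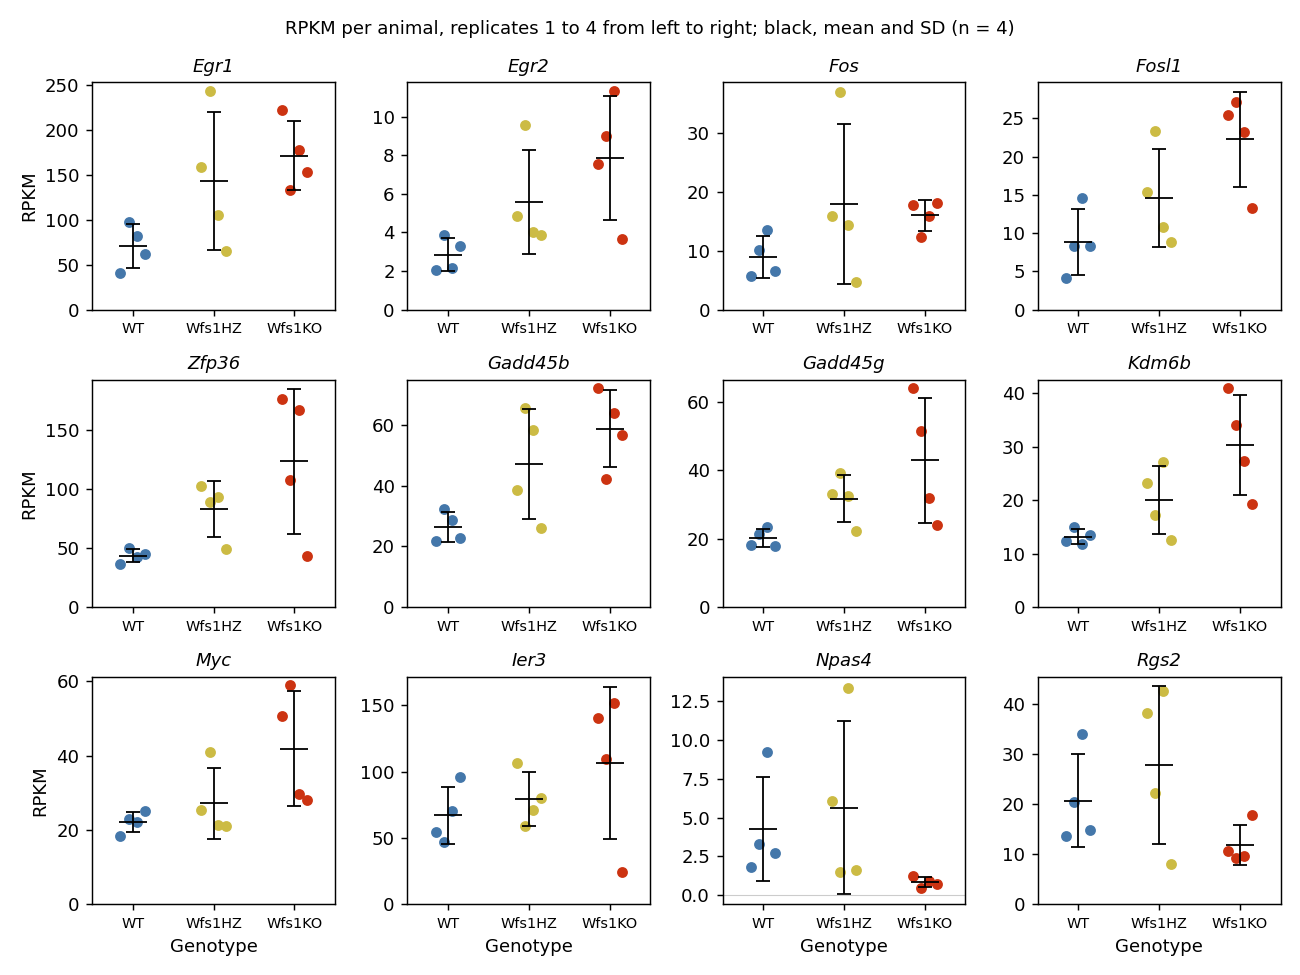
RPKM of 12 of the genes (1 panel each, vertical axis from 0) by genotype, 1 point per animal with replicates 1 to 4 from left to right, and the mean with SD (n = 4) in black. Egr1, Gadd45b, Gadd45g, Kdm6b and Myc show all 4 Wfs1KO animals above all WT animals, Npas4 shows them below all others, and for Zfp36 and Ier3 Wfs1KO replicate 4 lies far below replicates 1 to 3.

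Of 9 genes that feed back on RNA stability and growth, 8 had a higher mean in Wfs1KO than in WT, 5 with an unadjusted p under 0.05 (Gadd45b, Gadd45g, Zfp36, Ier5 and Zfp36l1), against 57.8% and 3.91% of all transcripts, with a median log2 fold change of 0.68. In Wfs1HZ all 9 were higher than in WT and the same 5 had an unadjusted p under 0.05, against 53.5% and 1.09% of all transcripts, with a median of 0.54; both comparisons use the same WT animals. Zfp36 encodes tristetraprolin, which binds AU-rich elements and removes short-lived mRNAs (chromosome 7, 28376784 to 28380253), and was at 36.8, 49.6, 42.2 and 45.2 RPKM in WT, 102, 88.5, 93 and 48.9 RPKM in Wfs1HZ and 177, 108, 167 and 43.3 RPKM in Wfs1KO islets. Replicates 1 to 3 of both mutant genotypes lay above every WT animal, and replicate 4 of both lay within the WT range. The log2 fold change was 0.89 ± 0.25 (SE) in Wfs1HZ (exact permutation p = 0.0571) and 1.32 ± 0.41 (SE) in Wfs1KO (limma, adjusted p 0.835, exact permutation p = 0.0857). Zfp36l1, a relative with the same kind of RNA-binding zinc fingers, was at 12.7, 14.9, 17 and 20.9 RPKM in WT, 27.4, 28.6, 17 and 22.6 RPKM in Wfs1HZ and 42.1, 26.4, 35.6 and 17.1 RPKM in Wfs1KO islets. Its Wfs1KO animals other than replicate 4 lay above WT, with a log2 fold change of 0.83 ± 0.29 (SE) and an exact permutation p of 0.0571. Btg2, which recruits the deadenylation machinery and restrains proliferation, was at 48.4, 41.3, 41.8 and 37.3 RPKM in WT, 46.6, 72.3, 47.1 and 59.6 RPKM in Wfs1HZ and 37.7, 31.2, 56.2 and 51.6 RPKM in Wfs1KO islets, and Wfs1KO differed from WT by 0.03 ± 0.21 (SE) on the log2 scale.

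The GADD45 proteins bind and activate stress kinases upstream of p38 and JNK. Gadd45b (chromosome 10, 80930073 to 80932204) was at 21.8, 32.4, 28.5 and 22.6 RPKM in WT, 38.5, 65.4, 58.2 and 26.1 RPKM in Wfs1HZ and 72.3, 42.1, 64 and 56.7 RPKM in Wfs1KO islets. The lowest Wfs1KO animal lay above the highest WT animal, and Wfs1HZ replicate 4 was the only heterozygote within the WT range. The mean was 26.3 ± 5.03 RPKM in WT and 58.8 ± 12.8 RPKM in Wfs1KO (SD, n = 4), 2.21-fold on the RPKM + 0.1 scale, with a log2 fold change of 1.15 ± 0.21 (SE), an adjusted p of 0.414 from limma and an exact permutation p of 0.0286. Gadd45g (chromosome 13, 51846678 to 51848468) was at 18.2, 21.2, 23.4 and 17.7 RPKM in WT, 33, 39, 32.4 and 22.2 RPKM in Wfs1HZ and 64, 51.3, 31.9 and 24.1 RPKM in Wfs1KO islets, likewise without overlap between Wfs1KO and WT and with a log2 fold change of 0.99 ± 0.30 (SE, limma, adjusted p 0.835, exact permutation p = 0.0286). Gadd45a had means of 19.8 ± 4.29, 24.5 ± 9.81 and 19.9 ± 6.07 RPKM in WT, Wfs1HZ and Wfs1KO islets and a log2 fold change between Wfs1KO and WT of -0.02 ± 0.25 (SE). Differences between these paralogs were not tested.

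Of the immediate early response genes, Ier5, a regulator of heat shock factor activity, was at 20.9, 20.6, 17.3 and 11.1 RPKM in WT, 49.7, 41.5, 29.99 and 15.1 RPKM in Wfs1HZ and 26.4, 25.6, 29 and 28.2 RPKM in Wfs1KO islets. The Wfs1KO values lay close together and all above WT, with a log2 fold change of 0.68 ± 0.21 (SE, limma, adjusted p 0.835, exact permutation p = 0.0286), and 3 of 4 Wfs1HZ animals lay higher still. Ier3, a survival factor also known as IEX-1, was at 54.8, 47.4, 70.3 and 96.1 RPKM in WT, 107, 58.9, 71.5 and 80.2 RPKM in Wfs1HZ and 141, 109.7, 152 and 24.3 RPKM in Wfs1KO islets. Wfs1KO replicates 1 to 3 lay above every WT animal and replicate 4 was the lowest of all 12, and the log2 fold change of 0.42 ± 0.55 (SE) was within the spread (exact permutation p = 0.514). Ier2, a small nuclear protein, was at 5.12, 7.5, 4.47 and 5.39 RPKM in WT, 7.25, 11, 5.22 and 3.24 RPKM in Wfs1HZ and 10.7, 5.93, 5.66 and 6.92 RPKM in Wfs1KO islets, and all genotypes overlapped.

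Of 8 genes that dampen signalling, 5 had a higher mean in Wfs1KO than in WT islets, 1 (Rgs2, lower) had an unadjusted p under 0.05, against 57.8% and 1.74% of all transcripts, and the median log2 fold change was 0.14. In Wfs1HZ 7 of 8 were higher than in WT, none with an unadjusted p under 0.05, against 53.5% and 2.35% of all transcripts, and the median was 0.27. Rgs2, which shortens the signal of Gq-coupled receptors (chromosome 1, 143999338 to 144004161), was at 13.6, 20.5, 33.9 and 15 RPKM in WT, 38.2, 22.2, 42.7 and 8.14 RPKM in Wfs1HZ and 10.6, 9.28, 9.69 and 17.8 RPKM in Wfs1KO islets. In Wfs1KO replicates 1 to 3 lay below every WT animal and replicate 4 lay inside the WT range, with a log2 fold change of -0.76 ± 0.32 (SE, limma, adjusted p 0.877, exact permutation p = 0.0857) against WT and -1.02 ± 0.48 (SE) against Wfs1HZ (exact permutation p = 0.171). Dusp1, a nuclear phosphatase of MAP kinases with the cyclic AMP response element printed above, was at 26.2, 40.7, 68.7 and 59.7 RPKM in WT, 84.6, 66.6, 67.6 and 51.8 RPKM in Wfs1HZ and 54.2, 53.4, 54.6 and 34 RPKM in Wfs1KO islets. Wfs1KO replicates 1 to 3 were almost equal and lay inside the WT range, and the log2 fold change against WT was 0.07 ± 0.31 (SE). Between Wfs1KO and Wfs1HZ it was -0.47 ± 0.25 (SE, exact permutation p = 0.114). Under some alternatives Dusp1 had an unadjusted p under 0.05 in limma. It was then lower in Wfs1KO than in Wfs1HZ (among them quantile normalization and sample weights) or higher in Wfs1HZ than in WT (sample weights and without WT replicate 3). Socs3, the feedback inhibitor of cytokine receptors, was at 11, 10.5, 17.5 and 17.4 RPKM in WT, 23.6, 21.9, 16 and 16 RPKM in Wfs1HZ and 36.2, 38.8, 16.6 and 11.7 RPKM in Wfs1KO islets. Wfs1KO replicates 1 and 2 were the highest of all, replicates 3 and 4 lay in the WT range, and the log2 fold change was 0.74 ± 0.40 (SE, exact permutation p = 0.171).

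None of the other phosphatases, nor Sik1, had an unadjusted p under 0.05 in the main limma fits. Under some alternatives Dusp5 did, lower in Wfs1KO than in Wfs1HZ (among them median-of-ratios scaling and quantile normalization). It also did without Wfs1HZ replicate 4, higher in Wfs1HZ than in WT. Dusp4 did with sample weights, higher in Wfs1HZ than in WT. Sik1 did with sample weights and without Wfs1KO replicate 4, higher in Wfs1KO than in WT. Dusp5, specific for nuclear ERK and with the pair of CArG boxes printed above, had means of 3.09 ± 1.24, 5.68 ± 3.06 and 2.31 ± 0.577 RPKM in WT, Wfs1HZ and Wfs1KO islets (SD, n = 4), and its log2 fold change between Wfs1KO and Wfs1HZ was -1.10 ± 0.49 (SE, exact permutation p = 0.114). Dusp4 and Dusp6 differed between Wfs1KO and WT by 0.26 ± 0.24 (SE) and 0.20 ± 0.31 (SE) on the log2 scale. Dusp2 was listed at 0 in 2 WT, 1 Wfs1HZ and 1 Wfs1KO library and did not exceed 1.05 RPKM. Sik1, a kinase that holds the CREB coactivators in the cytoplasm, had means of 9.88 ± 1.79 RPKM in WT islets and 13.7 ± 3.1 RPKM in Wfs1KO, with a log2 fold change of 0.45 ± 0.22 (SE) and an exact permutation p of 0.0857.

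All 3 effector genes had a higher mean in Wfs1KO than in WT, 1 with an unadjusted p under 0.05, against 57.8% and 3.91% of all transcripts. Cyr61, a matricellular protein now called CCN1, was at 11.4, 25.8, 19.5 and 9.8 RPKM in WT, 22.8, 66.9, 17.3 and 17.2 RPKM in Wfs1HZ and 23.5, 23.5, 25.2 and 27.2 RPKM in Wfs1KO islets. The Wfs1KO values lay close together and WT replicate 2 lay among them, with a log2 fold change of 0.68 ± 0.29 (SE, limma, adjusted p 0.879, exact permutation p = 0.114). Ctgf, the related CCN2, was at 1.65, 4.16, 2.41 and 0.26 RPKM in WT, 1.64, 7.91, 2.19 and 0 RPKM in Wfs1HZ and 2.97, 1.88, 2.72 and 2.64 RPKM in Wfs1KO islets, and was highest in Wfs1HZ replicate 2, which also had the highest stromal sum (426 RPKM). The log2 fold change of Ctgf was 0.70 ± 0.68 (SE) in Wfs1KO and -0.27 ± 1.27 (SE) in Wfs1HZ against WT. Arc, best known from neurons, where it acts at synapses, was at 0.52, 3.48, 1.22 and 1.17 RPKM in WT, 2.39, 6.2, 2.29 and 2.91 RPKM in Wfs1HZ and 2.3, 1.11, 1.81 and 2.46 RPKM in Wfs1KO islets. Its highest value came again from Wfs1HZ replicate 2, and the genotypes overlapped (log2 fold change of Wfs1HZ against WT 1.23 ± 0.59 (SE), exact permutation p = 0.114).

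The animals of a genotype differed from each other in a way that the genes partly shared. Wfs1HZ replicate 4 was the lowest heterozygote for 33 of 44 genes, against 54.7% of all transcripts. It differed from the mean of the other Wfs1HZ animals by -1.0 on the log2 scale in the median of the genes, against -0.89 over all transcripts. Wfs1HZ replicate 2 was the highest of all 12 animals for 15 genes, among them Fos, Fosb, Atf3, Egr1, Klf6 and Cyr61, against 46.9% of all transcripts. WT replicate 1 was the lowest of all 12 animals for 15 genes, against 12.8% of all transcripts. Wfs1KO replicate 4 split the set. It was the highest Wfs1KO animal for 13 genes (Fos, Fosb, Jun, Egr3, Dusp6, Klf2, Klf4, Klf10, Atf3, Arc, Rgs2, Gadd45a and Cyr61), against 44.9% of all transcripts. It was the lowest for 20, among them Zfp36, Ier3, Maff, Nr4a3, Egr2, Kdm6b, Myc and Socs3, against 17.2%. This library had the lowest acinar, ductal and immune sums of all 12 and the highest stromal sum among Wfs1KO animals. Their part in the split was not tested. The median coefficient of variation over the 41 genes with a mean of at least 1 RPKM was 30.6% in WT, 44.1% in Wfs1HZ and 31.6% in Wfs1KO islets.

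Over the 12 animals the 41 genes with a mean of at least 1 RPKM had a higher median correlation than transcripts in general, by a smaller margin once genotype means were removed. The median Pearson r of log2 levels over their 820 pairs was 0.42, against 0.27 over all pairs of 13356 transcripts with that mean, and r exceeded 0.5 in 40.5% of pairs, against 26.0%. With the mean of each genotype subtracted the medians were 0.38 and 0.32, and 36.6% and 32.5% of pairs exceeded 0.5. The pairs share libraries, depth and cell make-up, so these values are descriptions. Egr1 had the highest median r with the other genes (0.64), followed by Nr4a1 (0.62), Gadd45b (0.61) and Fos (0.58), whereas Npas4 (-0.03), Btg2 (0.04) and Ier3 (0.06) had the lowest. The closest pairs were Klf10 with Ctgf (r = 0.95), Fosl2 with Nr4a3 (0.92), Klf6 with Cyr61 (0.92), Fos with Klf6 (0.92) and Egr1 with Gadd45b (0.91). Npas4 ran most against Myc (-0.61) and Egr2 (-0.52), values that hold the differences between genotypes. With the mean of each genotype subtracted, r was -0.26 for both pairs. The median r of Npas4 with the other genes was then 0.23.

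**Figure D5:**
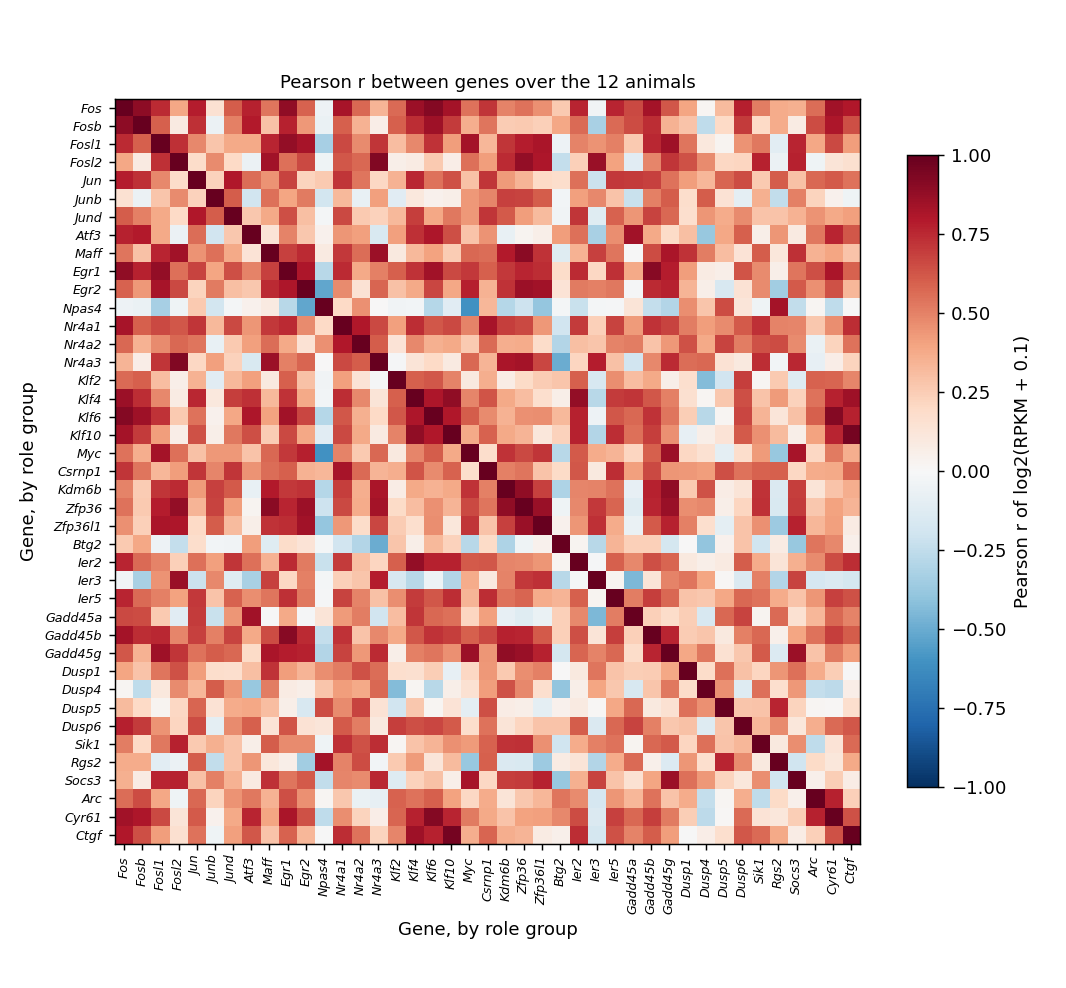
Pearson r of log2(RPKM + 0.1) over the 12 animals between each pair of the 41 genes with a mean of at least 1 RPKM, in the order of the role groups, with red for positive and blue for negative values. Most pairs are red (median r 0.42). The lines of Npas4, Btg2 and Ier3 mix red and blue and have the lowest median r (-0.03, 0.04 and 0.06). Npas4 ranges from -0.61 with Myc to 0.83 with Rgs2, and Ier3 from -0.45 with Gadd45a to 0.87 with Fosl2.

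Pairs were examined singly for 6 combinations of functional partners, with permutation tests (100000 resamples, two-sided) adjusted by the Benjamini-Hochberg method over the 6. Fos and Egr1 had an r of 0.89 and a rho of 0.90 (adjusted permutation p = 0.0003 and 0.00102, n = 12), r was 0.91 without the 2 animals farthest from the median of Fos, and 0.90 with genotype means subtracted. Egr1 and Zfp36 had an r of 0.76 and a rho of 0.73 (adjusted permutation p = 0.0153 and 0.02), with 0.78 without the 2 farthest animals and 0.50 with genotype means subtracted. The study had listed both as raised in Wfs1KO from these same animals. The permutations did not keep genotypes apart, so genotype differences enter the p-values of all 6 pairs. No p was computed with genotype means subtracted. For comparison, 26.0% of all transcript pairs had an r above 0.5. Cyr61 and Ctgf had an r of 0.64 and a rho of 0.83 (adjusted permutation p = 0.0609 and 0.00384), and r was 0.39 without the 2 farthest animals, Wfs1HZ replicate 2 and WT replicate 4, so the linear relation rests on them. Jun and Atf3 had an r of 0.56 and a rho of 0.64 (adjusted permutation p = 0.0609 and 0.0415), with an r of 0.54 without the 2 farthest animals. No relation was found at this size between Fos and Junb (r = 0.15, rho = 0.35, adjusted permutation p = 0.769 and 0.318) or between Npas4 and Arc (r = 0.02, rho = 0.01, adjusted permutation p = 0.95 and 0.973).

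The genes on either side of the response in the pathway were given by 2 lists. Among 33 upstream regulators (serum response factor and its partners, CREB and its coactivators, MEF2, MAP kinases, calcium and cyclic AMP dependent kinases, calcineurin and NFAT), 22 had a higher mean in Wfs1KO than in WT islets, 0 had an unadjusted p under 0.05 in limma and 0 an FDR under 0.2, against 57.8%, 5.64% and 0.0461% of all transcripts, and the median log2 fold change was 0.06, against 0.07. Between Wfs1HZ and WT 14 of 33 were higher and 1 had an unadjusted p under 0.05, against 53.5% and 2.35% of all transcripts. This was Srf, the gene of serum response factor, at 9.4, 8.89, 9.81 and 8.07 RPKM in WT, 15.7, 11.2, 16.8 and 9.9 RPKM in Wfs1HZ and 11.2, 8.59, 9.47 and 8.32 RPKM in Wfs1KO islets, where the Wfs1HZ animals lay above WT without overlap (log2 fold change 0.53, SE 0.23, adjusted p 1 in limma). Between Wfs1KO and Wfs1HZ 20 of 33 were higher and 0 had an unadjusted p under 0.05, against 53.5% and 2.45%.

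Among 34 delayed and secondary targets, 24 had a higher mean in Wfs1KO than in WT, 3 of them with an unadjusted p under 0.05, 1 was lower with an unadjusted p under 0.05, 0 had an FDR under 0.2, and the median log2 fold change was 0.31. The shares over all transcripts were 57.8%, 3.91%, 1.74% and 0.0461%, with a median of 0.07. Plaur, the urokinase receptor and an AP-1 target, was at 18.5, 15.2, 15.9 and 8.25 RPKM in the WT animals and, without overlap, at 32.1, 29.1, 39.8 and 29.2 RPKM in Wfs1KO, with a log2 fold change of 1.21 (SE 0.26, adjusted p 0.521 in limma). Spry2, an inhibitor of receptor tyrosine kinase signalling, was at 7.31, 5.84, 5.7 and 5.12 RPKM in the WT animals and at 9.26, 8.73, 7.48 and 12.7 RPKM in Wfs1KO, also without overlap, with a log2 fold change of 0.65. Hbegf, a ligand of the EGF receptor, overlapped (log2 fold change 0.70, SE 0.29). Plk3, a stress-responsive kinase and the gene that was lower with an unadjusted p under 0.05, overlapped as well, at 22.2, 20.2, 11.9 and 7.67 RPKM in Wfs1KO against 40.1, 16.7, 22 and 40.2 RPKM in WT islets. Bdnf, a neurotrophin named here after its values were seen, was the gene with all Wfs1KO animals below WT, at 1.38, 1.7, 1.37 and 1.7 RPKM against 2.14, 2.08, 2.23 and 2.09 RPKM (log2 fold change -0.46, SE 0.27, adjusted p 0.879 in limma), and the Wfs1HZ animals lay on both sides, from 0.76 to 3.37 RPKM. Over all transcripts 1.75% lay higher and 0.991% lower without overlap. Between Wfs1HZ and WT 17 of 34 were higher and 0 had an unadjusted p under 0.05, against 53.5% and 2.35%, with a median of 0.01. Between Wfs1KO and Wfs1HZ 23 of 34 were higher, Plaur with an unadjusted p under 0.05 (log2 fold change 0.79), against 53.5% and 1.7% of all transcripts, and the median was 0.17.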

How the data were processed

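Islet RNA of 12 mice was sequenced on the SOLiD system from 10 ng of total RNA (75 bp forward reads, 35 bp reverse). With LifeScope the authors aligned them to mm10, tested counts with edgeR and deposited RPKM values, 1 column per animal, with no log transformation; the annotation and the counter behind the RPKM are not given in the sources used here. Since RPKM are not counts, the count test was not repeated. Depth was estimated from small nucleolar RNA and microRNA genes of up to 200 nt, whose low RPKM are multiples of 1 read (96.4% to 100% of their values were whole within 0.1 read), so floors are estimates and cover counting error only.

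Genotypes were taken from the sample labels. Each pair was fitted on log2(RPKM + 0.1) with limma (version 3.58.1, R 4.3.3), with a variance trend and adjustment by the Benjamini-Hochberg method over the 21701 transcripts whose mean was 0.1 RPKM or more. Fold changes on this scale understate those of low genes. FDR thresholds were 0.05 and 0.2. For single genes an exact permutation test, two-sided, was added (4 against 4, smallest p 0.0286). The rest used Python 3.11.15 (numpy 2.4.6, pandas 2.3.3), with scipy 1.17.1 for tests and matplotlib 3.10.9 for plots, and the fit was checked on simulated data. Coordinates are from GENCODE M21 (GRCm38, the build of mm10), where Cyr61 and Ctgf are Ccn1 and Ccn2.

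The members and gene lists were chosen with earlier results of these data known. Values in every animal are given for Egr1, Zfp36, Npas4, 17 representatives (Fos, Fosb, Jun, Junb, Atf3, Egr2, Egr3, Nr4a1, Arc, Ier2, Ier3, Btg2, Dusp1, Socs3, Myc, Cyr61 and Ctgf) and any other member with an unadjusted p under 0.05 in any comparison, and of the other lists for up to 4 genes with such a p. Alternatives were pseudocounts of 1 and 0.01, other filters and scalings, no variance trend, sample weights, all animals in a single fit, a replicate block, and leaving out each animal. The replicate numbers come from the labels and mark different animals.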

Additional observations from a re-analysis of the deposited data

Results flagged for a closer look

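Of 132 groups of 4 animals (44 genes in 3 genotypes), 11 held a single animal far from the other 3, by Dixon's test at the 95% level, which chance alone marks in about 5% of groups. In Wfs1HZ, replicate 4 was low for Jun (29.6 RPKM), Jund (2.61 RPKM), Nr4a1 (5.19 RPKM) and Csrnp1 (4.86 RPKM), replicate 3 was high for Junb (20.3 RPKM) and replicate 2 was high for Egr3 (0.64 RPKM). In Wfs1KO, replicate 4 was low for Nr4a3 (1.28 RPKM), Dusp1 (34.0 RPKM) and Maff (66.0 RPKM). In WT, replicate 3 was high for Nr4a2 (19.2 RPKM) and Dusp6 (6.69 RPKM). Wfs1HZ replicate 4 had the highest and Wfs1KO replicate 4 the lowest acinar marker sum of the 12 animals, and the part of these cells in the values was not tested.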

How the results depend on the processing

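No member had an FDR under 0.05 in any comparison under any alternative. Of 42 fold changes of named genes, 37 kept their sign under every alternative. Between Wfs1KO and WT the median log2 fold change stayed between 0.41 and 0.68. The count at an unadjusted p under 0.05 was 11 to 21 with single animals left out, against 4.23% to 8.62% of all transcripts. It was 12 to 22 otherwise (16 as reported), against 3.03% to 9.52%. The count at an FDR under 0.2 was 1 with sample weights (Kdm6b, and 27 of all transcripts) and 0 to 3 with single animals left out. The fold change of Btg2 turned to -0.054 with quantile normalization and -0.15 with sample weights, and ranged from -0.10 to 0.19 with single animals left out, while Dusp1 turned to -0.0280 with quantile normalization. With single animals left out Dusp1 ranged from -0.19 to 0.27, Atf3 from -0.21 to 0.13 and Ctgf from -0.020 to 1.17. Between Wfs1KO and Wfs1HZ the count at an unadjusted p under 0.05 was 3 under 4 alternatives. These were a minimum mean of 1 RPKM (2.56% of all transcripts), median-of-ratios scaling (3.66%), quantile normalization (4.08%) and the replicate number as a block (1.82%). It was 5 with all 12 animals in a single fit (3.22%) and 1 to 8 with single animals left out (1.57% to 6.03%). With sample weights it was 11 (7 higher, 4 lower), while the share of all transcripts went from 2.45% to 10.3% (7.31% higher and 3.03% lower). It was 6 without Wfs1HZ replicate 2 and replicate 4 together (chosen after seeing the data, 3.96% of all transcripts). With sample weights 2 genes, Npas4 and Rgs2, had an FDR under 0.2, as did 42 of all 21701 transcripts. Between Wfs1HZ and WT the count was 2 without a variance trend, 18 with sample weights (2.36% and 7.09% of all transcripts) and 3 to 15 with single animals left out (1.41% to 5.01%). Npas4 turned to -0.27 with quantile normalization, was at 1.34 with sample weights and 1.32 without Wfs1HZ replicate 2 and replicate 4 together, and ranged from -0.49 to 0.55 with single animals left out. The cause of these changes was not tested. Animals with the same replicate number did not deviate together in all pairs (correlations of -0.17 to 0.23), so the numbers were not taken as pairs. With the replicate number as a block 13, 3 and 10 genes had an unadjusted p under 0.05 in the 3 comparisons (Wfs1KO with WT, Wfs1KO with Wfs1HZ, Wfs1HZ with WT), against 5.03%, 1.82% and 3.94% of all transcripts. In the same order 1, 0 and 3 of 4 animals correlated best with their own number. At the estimated depths 3 reads on a transcript of 2 kb stood for 0.157 to 0.685 RPKM, a floor for the level in a single library. The smallest difference between genotypes that could be detected was not computed.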
